A study of Mus musculus with 4 samples.

Results

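The genes described are those of the cytosolic ribosomal proteins, measured in the dorsal hippocampus of female mice of a 20-fold iodine group and a control group. Members were taken by name. A probe belonged to the set if its gene symbol began with Rpl or Rps and a digit, and symbols with -ps, which mark pseudogenes, and the Rps6k kinases were left out. The rule found 146 probes of 85 genes, among 56605 probes on the array, of which 32994 could be named and stood for 22911 genes. Of these 85 genes, 51 carried a large-subunit name (Rpl, 87 probes) and 34 a small-subunit name (Rps, 59 probes). The rule goes by letters, so it also takes in copies such as Rpl22l1 and Rps27l and a pair of genes, Rps19bp1 and Rps23rg1, that are named after a ribosomal protein without being one. It leaves out ribosomal proteins with other names, such as Rplp0, Rplp1, Rplp2, Rpsa, Fau and Rack1, which are described apart.

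The study addressed how excessive iodine intake affects the developing brain. RNA was taken from the dorsal hippocampus once a series of behavioural tests was over, and each RNA was labelled with Cy3 and hybridised alone to a 1-colour Agilent mouse array. There were 2 control arrays (replicates 2 and 3) and 2 arrays of the 20-fold iodine group (replicates 2 and 3). All 4 samples were labelled female with no genotype, and strain, age, absolute iodine dose and the length of exposure were not given in the sources used here. Nothing in the labels says whether each array holds 1 animal or a pool, so p-values reflect the scatter among these RNAs alone, some of which may be technical. Standard errors and p-values are those of limma, which moderates each gene's variance with that of all genes tested.

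A ribosome is built from a small subunit, which reads the mRNA, and a large subunit, which joins amino acids and passes the new chain out through a tunnel. Each subunit is a core of ribosomal RNA carrying proteins nearly all present in a single copy, and the protein genes are expressed together at high levels. Their mRNAs begin with a C followed by a run of C and T, the 5′ terminal oligopyrimidine (TOP) sequence, through which mTOR signalling controls their translation. In neurons, ribosomes work in the cell body and in dendrites, where local protein synthesis is needed for lasting changes at synapses. Thyroid hormone, which is made from iodine, is required for brain development.

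The sequence round the start of transcription is shown for 8 members, because the TOP run is the regulatory feature that these genes are known to share. Starts are those of RefSeq on the mouse build GRCm38.p6, where 62 of the 82 tested members had a promoter entry, with 73 starts in all. Each line gives 20 bases before the start and 20 from the start on, 5′ to 3′ on the gene's strand, and capitals mark the unbroken run of C or T that begins at the start base.
Rps15a, chr7:118116128-118116167, minus strand: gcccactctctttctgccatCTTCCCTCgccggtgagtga
Rpl35, chr2:39005112-39005151, minus strand: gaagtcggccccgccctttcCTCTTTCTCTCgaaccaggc
Rpl38, chr11:114668560-114668599, plus strand: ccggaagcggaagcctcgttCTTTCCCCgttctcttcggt
Rps18, chr17:33955646-33955685, minus strand: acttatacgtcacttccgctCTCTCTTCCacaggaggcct
Rps6, chr4:86857348-86857387, minus strand: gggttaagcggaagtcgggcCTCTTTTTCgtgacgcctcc
Rpl28, chr7:4792945-4792984, plus strand: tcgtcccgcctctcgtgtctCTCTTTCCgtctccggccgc
Rpl39, chrX:37085203-37085242, minus strand: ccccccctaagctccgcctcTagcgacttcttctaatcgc
Rpl22l1, chr3:28805488-28805527, plus strand: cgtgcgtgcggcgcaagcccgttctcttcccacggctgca
The first 6 start with the full run, Rpl39 starts with a single T, and the listed start of Rpl22l1 is a G.

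A C at the listed start followed by at least 4 more C or T was found at 13 of the 73 member starts (17.8%), against 823 of all 32851 starts in the table (2.51%). A C followed by 4 such bases within 10 bases of the start, on the gene's strand, was present at 39 member starts (53.4%) and at 30.7% of all starts. The letters CCGGAAG, the core of an ETS factor motif, were present on either strand at 24 member starts (32.9%) in the 300 bases of the entry, against 8.86% of all starts. TATAAA on either strand was present at 7 member starts (9.59%) and at 13.6% of all. These matches describe the letters only.

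Members of the set were among the brightest probes of the arrays and were measured with little scatter. After the scanner software's background subtraction, each array's log2 processed intensity was shifted so that the 75th percentiles of the 4 arrays met at their mean, and this value is called the log2 signal. A probe was kept if the software marked it well above background on 2 or more of the 4 arrays, and each gene was tested by its brightest kept probe. By that filter 143 of the 146 member probes and 82 of the 85 genes were tested (48 large, 34 small), among 16794 genes in all. The other genes, Rpl3l, Rpl10l and Rpl39l, had 1 probe each, and none was well above background on any array. These are the copies of Rpl3, Rpl10 and Rpl39 known from striated muscle and testis. No spot was saturated on any array.

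No ribosomal protein gene passed the test between 20-fold iodine and control. At an adjusted p under 0.05 (limma, Benjamini-Hochberg over all genes tested), 0 of 82 members were called, and so were 0 of all 16794 genes (0%), with a smallest adjusted p among members of 0.668. At an unadjusted p under 0.05, 0 members were higher in iodine, against 650 of all genes (3.87%), and 1, Rpl39, was lower (1.22%), against 584 of all genes (3.48%). By direction alone, 59 members (72.0%) read lower in iodine and 23 (28.0%) read higher, where 54.4% of all genes read lower and 45.6% higher. This split depended on the scaling, since cyclic loess normalization gave 45 lower and 37 higher. In 30 members (36.6%) both iodine arrays lay below both controls, against 21.9% of all genes, and in 11 (13.4%) both lay above, against 17.9%. With normexp background correction these counts were 41 and 4, beside 19.1% and 22.6% of all genes, and with each array centred on its median they were 49 and 5, beside 27.0% and 13.9%.

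The differences were small in size. The median member difference, iodine minus control, was -0.030 on the log2 scale, with the middle 50% of members between -0.073 and 0.0086, and the median of all genes was -0.014. The median size of a difference, whatever its sign, was 0.042 in members and 0.093 in all genes. Of the 82 members, 68 (82.9%) differed by less than 0.1, against 52.7% of all genes. All genes include many dim ones, and the gap was narrower among genes of like brightness. At a log2 signal between 12 and 14 the shares were 89.8% of 59 members and 77.5% of 692 genes. At 14 and above they were 50% of 10 members and 76.7% of 150 genes, with median sizes of 0.094 and 0.048. The 95% confidence interval of the difference lay wholly within 0.3 log2 units of 0, a 1.23-fold change, for 66 of the 82 members. Of all 16794 genes, 4865 had such an interval. Between 12 and 14 it was 52 of 59 members and 386 of 692 genes, and at 14 and above 5 of 10 and 84 of 150. Such an interval bounds a difference and does not show that the groups are equal. The plot of differences with their intervals shows 1 member, Rpl39, whose interval leaves out 0.

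**Figure D1:**
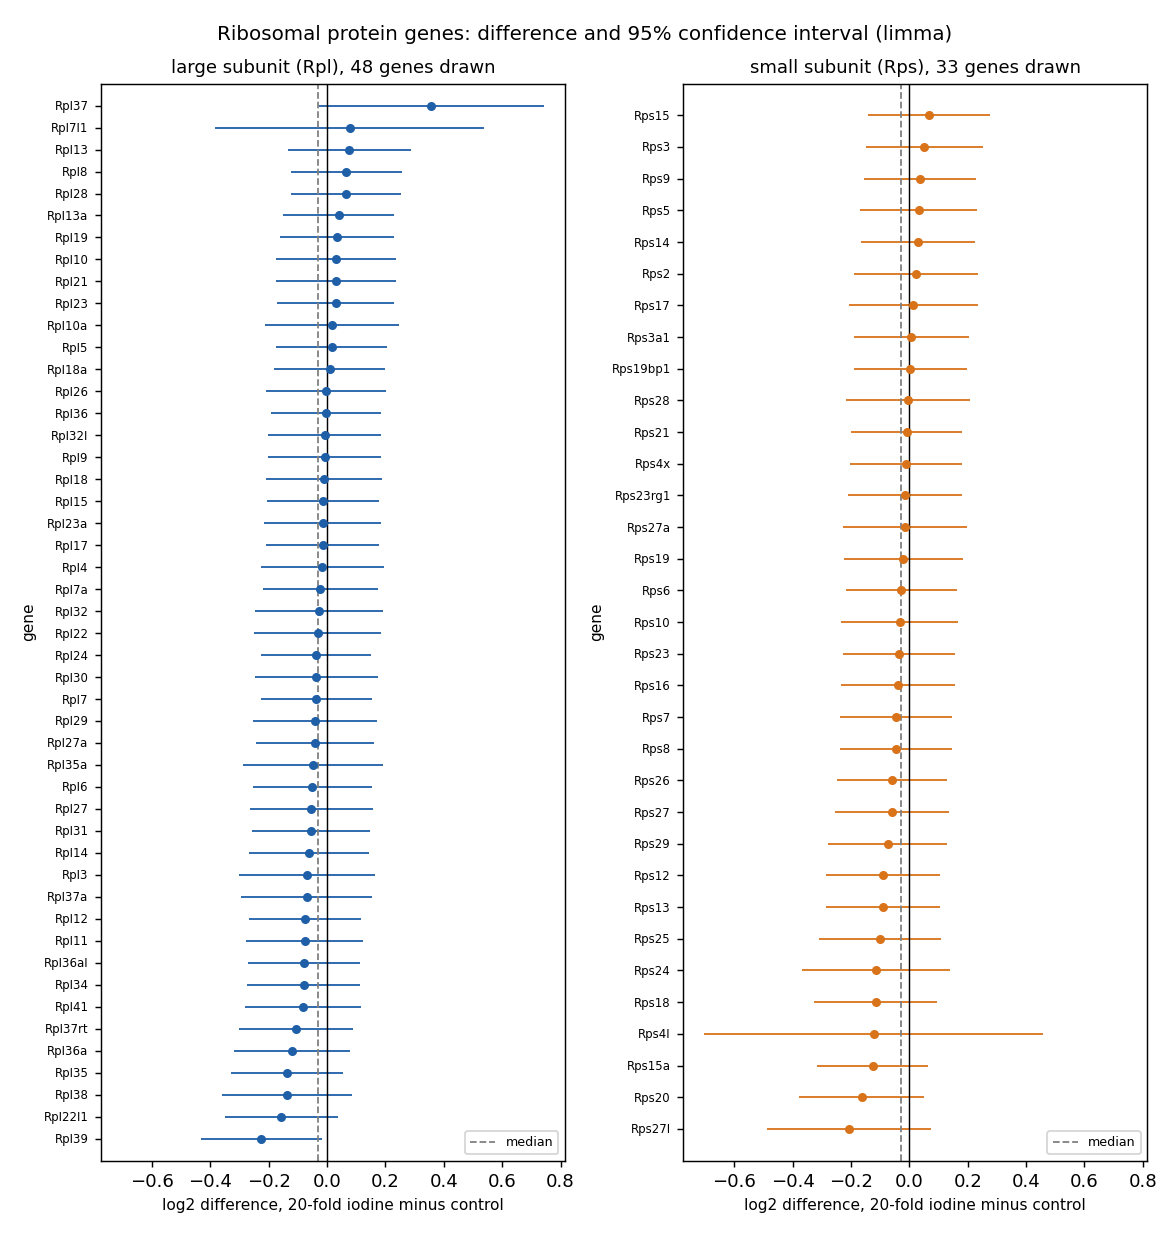
Log2 difference, 20-fold iodine minus control, on the horizontal axis for 48 large-subunit and 33 small-subunit genes, with the gene names on the vertical axis, large subunit left and small subunit right. Points are the estimates and lines the 95% confidence intervals from limma over 2 arrays a group; the dashed line is the median of all tested genes of that subunit, -0.030 in both, and Rpl39 at -0.23 is the member whose interval leaves out 0.

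The large and small subunits gave nearly the same values. The median difference was -0.030 over the 48 large-subunit genes and -0.030 over the 34 small-subunit genes. In the large subunit 35 genes read lower and 13 higher, and in the small subunit 24 read lower and 10 higher. Both iodine arrays lay below both controls in 15 large-subunit genes (31.2%) and in 15 small-subunit genes (44.1%), against 21.9% of all genes, and above them in 7 (14.6%) and 4 (11.8%), against 17.9%. These counts describe the subunits, and the difference between them was not tested.

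The subunits also moved together from array to array. Taking each gene's signal relative to its own mean over the 4 arrays, the median large-subunit gene stood at -0.0025 in control 2, 0.032 in control 3, 0.0030 in iodine 2 and -0.025 in iodine 3. The median small-subunit gene stood at -0.0031, 0.029, -0.0014 and -0.027 in the same arrays. The subunit medians were thus between 0.00059 and 0.0044 apart on each array. Control 3 was the highest array for 48 of the 82 members and iodine 3 the lowest for 45. The medians of control 2 and iodine 2 lay between theirs and close to each other. Gene by gene, control 2 and iodine 2 differed by a median of 0.046, whatever the sign, against 0.12 over all genes. Over all 16794 genes the medians were 0.0053, 0.0062, 0.0074 and -0.019 in the same order of arrays. Over the 692 genes with a log2 signal between 12 and 14 they were 0.0039, 0.016, 0.036 and -0.055. A low iodine 3 was therefore not particular to the members. Highest and lowest arrays were not counted over all genes.

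Single arrays therefore set the size of the median. Without control 3 the member median was -0.011 and without iodine 3 it was -0.017, whereas it was -0.047 without control 2 and -0.048 without iodine 2. The direction was the same each time, with 48 members lower and 34 higher without control 3, and 47 lower and 35 higher without iodine 3. The median of all genes was also below 0 each time. It was -0.014 without control 3, -0.0019 without iodine 3, -0.015 without control 2 and -0.023 without iodine 2. Without control 3 the member median was thus no lower than that of all genes. The 2 controls differed by a median of 0.036 in a member and the 2 iodine arrays by 0.048, and the group means differed by a median of 0.042, all whatever the sign.

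**Figure D2:**
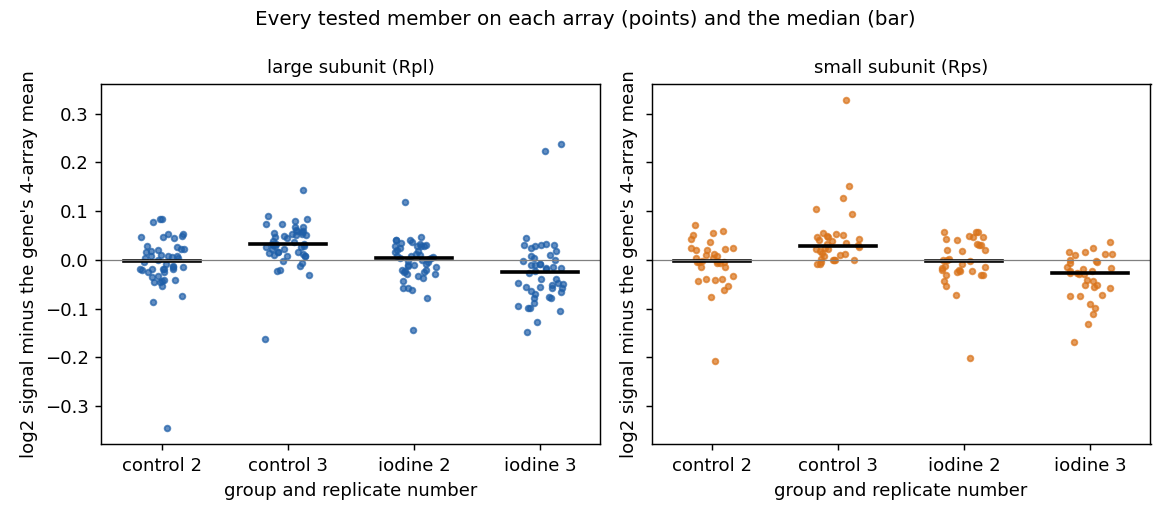
Log2 signal of every tested member minus that gene's mean over the 4 arrays (vertical axis) on each array (horizontal axis), large subunit left and small subunit right. Points are genes and bars are medians, which lie between -0.027 and 0.032 and follow the same order of arrays in both subunits, with control 3 highest and iodine 3 lowest.

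Of the members that read lower in iodine, Rpl39 had the smallest unadjusted p. Rpl39, a short protein that lines the tunnel through which the new chain leaves, had log2 signals of 12.94 and 13.00 in the controls and 12.78 and 12.71 in iodine. The groups did not overlap, and the difference was -0.23 ± 0.076 (SE; unadjusted p = 0.0389, adjusted p = 0.668, limma). Leaving out control 2, iodine 2 or iodine 3 took the unadjusted p above 0.05, and the difference was between -0.26 and -0.19 whichever array was left out. Rpl35 and Rpl31 lie where the tunnel opens. Rpl35 read 14.129 and 14.161 in the controls and 14.018 and 13.998 in iodine, a difference of -0.14 ± 0.070. Rpl31 differed by -0.055 ± 0.073, with iodine 2 only just below control 2.

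Rpl38, which mouse embryos need for translation of a set of Hox mRNAs, read 14.23 and 14.27 in the controls and 14.17 and 14.05 in iodine. Its difference was -0.14 ± 0.082, and iodine 3 was the lowest array. Rpl36a, a protein near the site from which tRNA leaves, read 12.67 and 12.69 in the controls and 12.59 and 12.53 in iodine (-0.12 ± 0.073). Its other probes gave -0.027 and -0.057, with the groups overlapping. Rpl41, the smallest protein of the ribosome, differed by -0.082 ± 0.073. By the brightest probe of each of these genes both iodine arrays lay below both controls, and none reached an unadjusted p of 0.05.

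In the small subunit, Rps20, a protein of the head, read 13.952 and 13.997 in the controls and 13.861 and 13.762 in iodine (-0.16 ± 0.078). Rps15a, a protein of the body, read 12.14 and 12.12 in the controls and 12.01 and 11.99 in iodine (-0.13 ± 0.069). The gap between its groups was several times the gap within either, since its 2 controls were 0.019 apart and its 2 iodine arrays 0.020 apart. Rps18, which touches the large subunit, differed by -0.12 ± 0.077. Rps29 and Rps24, both mutated in Diamond-Blackfan anaemia, differed by -0.075 ± 0.074 and -0.11 ± 0.093, and in Rps24 the groups overlapped. The unadjusted p of Rps20 was 0.104 and that of Rps15a 0.142.

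Of the members that read higher in iodine, Rpl37 had the largest difference and the dimmest probe. Its log2 signals were 3.87 and 4.20 in the controls and 4.33 and 4.45 in iodine, a difference of 0.36 ± 0.14 (unadjusted p = 0.0619, adjusted p = 0.696, limma). Control 2 alone was far below the rest, and without it the difference was 0.19. The probe of Rpl37rt, a copy of Rpl37 made by retrotransposition, was the brightest of all members. It read 14.78 and 14.79 in the controls and 14.70 and 14.65 in iodine (-0.11 ± 0.071), opposite in sign to the Rpl37 probe. Probe sequences were not matched to Rpl37 against Rpl37rt, so which of these mRNAs each probe reads is not known here.

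The other higher members differed by less than 0.08. Rpl8, which sits near the peptidyl transferase centre where amino acids are joined, read 12.80 and 12.82 in the controls and 12.88 and 12.87 in iodine (0.066 ± 0.069). Rpl28 read 12.55 and 12.55 in the controls and 12.63 and 12.61 in iodine (0.066 ± 0.069). Rpl13 differed by 0.077 ± 0.077 by its brightest probe and by 0.0079 and -0.027 by its others, whose groups overlapped. Rpl13a, which can leave the ribosome to silence inflammatory mRNAs, differed by 0.039 ± 0.070. In the small subunit, Rps15, whose tail reaches the decoding centre, differed by 0.068 ± 0.077. Rps3, a protein of the mRNA entry channel that also acts in DNA repair, differed by 0.051 ± 0.073. By the brightest probe of each of these genes both iodine arrays were above both controls, and each difference was below its standard error or about as large. These standard errors draw on the variance of all genes. For Rpl28 the residual SD between its own arrays was 0.0079, beside a standard error of 0.069.

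**Figure D3:**
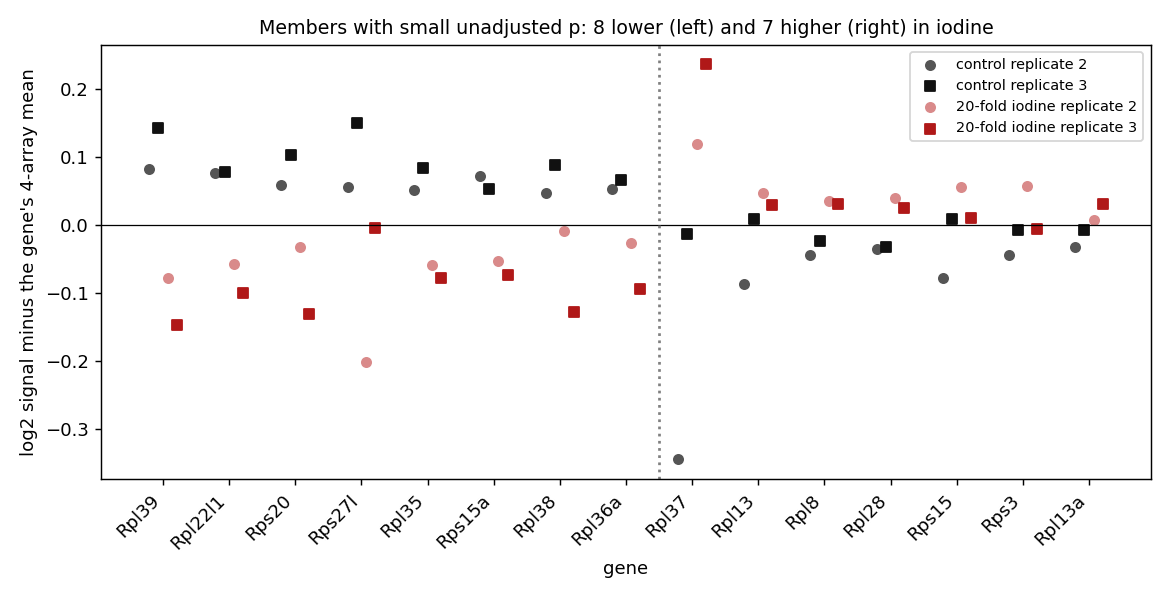
Log2 signal minus the gene's mean over the 4 arrays (vertical axis) for 8 lower members (left of the dotted line) and 7 higher members (right) with small unadjusted p. Each point is an array; in the 15 genes the groups do not overlap, the gaps within a group are visible beside the gap between groups, and control 2 of Rpl37 stands lowest.

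None of the members chosen for known roles beyond the ribosome passed the test. Rps6, whose phosphorylation by S6 kinase is a standard readout of mTOR activity in neurons, read 12.64 and 12.66 in the controls and 12.64 and 12.61 in iodine (-0.027 ± 0.070). Rpl5 and Rpl11 form a particle with the 5S ribosomal RNA that binds Mdm2 and stabilises p53 when assembly is disturbed. Rpl5 differed by 0.015 ± 0.069 and Rpl11 by -0.077 ± 0.073, and the sign of Rpl5 turned under normexp correction (-0.0045) and median centring (-0.0095).

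Rps19, the protein most often mutated in Diamond-Blackfan anaemia, differed by -0.021 ± 0.074. It turned positive under quantile (0.013) and cyclic loess (0.0019) normalization. Rpl4, which narrows the exit tunnel, differed by -0.017 ± 0.077, and by 0.0059 under cyclic loess. Rpl10, which joins the large subunit late and frees the export factor Nmd3, read 14.10 and 14.17 in the controls and 14.19 and 14.14 in iodine (0.031 ± 0.075), with the groups overlapping. Rps27a, made as a fusion with ubiquitin, differed by -0.016 ± 0.077 and turned positive under quantile (0.024) and cyclic loess (0.0071) normalization. None of these signs is settled by the data.

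The copies of ribosomal protein genes and the genes that only share the name numbered 9 among the tested members. Their median difference was -0.078, with 7 lower and 2 higher, and without them the median of the other 73 members was -0.028. Rpl22l1, the copy of the RNA-binding protein Rpl22, read 12.14 and 12.15 in the controls and 12.01 and 11.97 in iodine (-0.16 ± 0.070; unadjusted p = 0.0884, limma). Its parent Rpl22 differed by -0.032 ± 0.079, and its groups overlapped.

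Rps27l, the copy of Rps27 known as a p53 target, read 9.79 and 9.89 in the controls and 9.54 and 9.73 in iodine (-0.21 ± 0.10; unadjusted p = 0.112, limma). Rps27 itself differed by -0.060 ± 0.071. Rpl36al differed by -0.078 ± 0.070, and by 0.025 by its other probe, beside -0.12 in its parent Rpl36a. Rps4l, a copy of the X-linked Rps4x that RefSeq lists as a transcribed pseudogene, read 9.05 and 9.59 in the controls and 9.31 and 9.09 in iodine, so that control 3 alone stood apart. Its difference of -0.12 ± 0.21 became 0.15 without control 3, and Rps4x differed by -0.010 ± 0.070.

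Rpl7l1, a nucleolar relative of Rpl7, had a dim probe with signals of 5.29 and 5.04 in the controls and 5.06 and 5.43 in iodine (0.078 ± 0.17). Rpl7 differed by -0.037 ± 0.069. Rpl3, the parent of the undetected Rpl3l, differed by -0.067 ± 0.085 and by 0.019 by either of its other probes. Rps19bp1, a binding partner of Rps19, differed by 0.0039 ± 0.071, and Rps23rg1, a retroposed copy of Rps23 that codes for another kind of protein, by -0.015 ± 0.072. The groups overlapped in Rpl7l1, Rpl3, Rps19bp1 and Rps23rg1 and did not in Rpl7.

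Most members had bright probes. The median member had a log2 signal of 12.9 (large 12.8, small 13.4), against 7.58 for all genes, with members spanning 4.21 to 14.7. Brightness here is a property of a probe and its target together, and levels of different probes were not compared. Of the 82 members, 59 lay between 12 and 14 and 10 at 14 or above, where the whole array had 692 and 150 genes. Only 6 members lay below 10, namely Rpl37, Rpl7l1, Rps23rg1, Rps19bp1, Rps4l and Rps27l, and 5 of them are copies or genes of another kind.

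Against genes of like brightness, most members stood near the common value. Between 12 and 14 the median difference was -0.027 for the 59 members and -0.020 for all 692 genes. At 14 and above it was -0.094 for the 10 members and -0.025 for all 150 genes, and 9 of those 10 members read lower, with both iodine arrays below both controls in 7. Of all 150 genes of the band, 96 read lower and 26 had both iodine arrays below both controls. These 10 were Rpl10, Rpl31, Rpl35, Rpl37rt, Rpl38, Rpl41, Rps10, Rps18, Rps24 and Rps29, and Rpl10 was the one that read higher. Without control 3 their median was -0.055 and without iodine 2 it was -0.12. No test was made of this band, which holds few members.

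**Figure D4:**
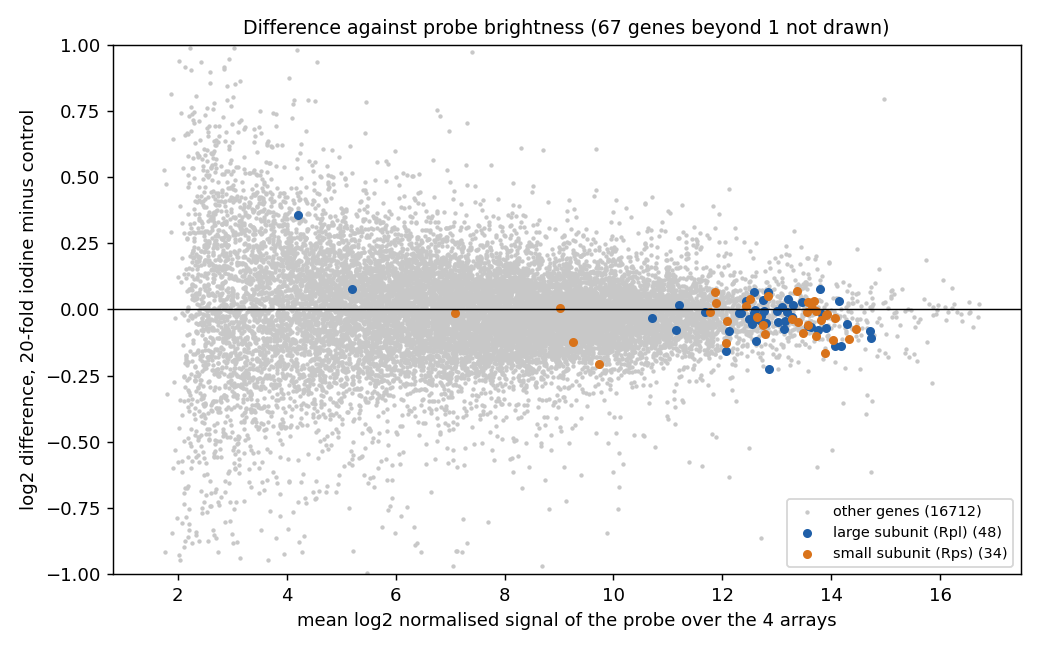
Log2 difference, 20-fold iodine minus control (vertical axis), against the mean log2 signal of the probe over the 4 arrays (horizontal axis) for the 16794 tested genes. Grey points are other genes and coloured points the 48 large-subunit and 34 small-subunit members, which crowd between 12 and 14 and lie closer to 0 than the dim genes; 67 genes beyond 1 are not drawn.

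The scatter between arrays was small in members, also beside genes of like brightness, which is given as a description. Some members were read by probes averaged over 10 spots, and the comparison was not matched for the number of spots. The median residual SD between arrays of a group was 0.035 for members and 0.092 for all genes, and between 12 and 14 it was 0.031 for members and 0.062 for all. A member's 4 arrays spanned a median of 0.099, and 74 of the 82 stayed within 0.2. The difference between groups was larger than both gaps within a group in 29 members (35.37%), against 27.2% of all genes. Over the member genes the arrays correlated pairwise with r between 0.9986 and 0.9994, a description over genes, which are not replicates.

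The array also repeats some probes, which gives a direct measure of error on 1 array. Of the member probes, 59 were printed on 10 spots each and the others on 1. Across the 10 spots the median coefficient of variation was between 2.28% and 3.26% on an array, and for a single probe on 1 array it ran from 1.06% to 6.32%. In log2 units the median SD between single spots was 0.039. Between the arrays of a group the median SD for these probes was 0.030. The latter is taken on means over the spots of a probe, so these SDs are not like measures. With the 10-spot probe in place of the brightest where a member had one, the median was -0.022 and 0 members had an unadjusted p under 0.05.

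Different probes of a gene shared a sign in most members that had several. Fitted probe by probe, 103 of the 143 member probes (72.0%) read lower and 40 (28.0%) higher, against 47.6% lower and 52.4% higher of all 38231 kept probes. At an adjusted p under 0.05, 0 member probes and 0 of all probes (0%) were called. At an unadjusted p under 0.05 (limma), 2 member probes (1.4%) were lower, against 3.14% of all probes, and 0 were higher, against 5.88%. The large-subunit probe among them was of Rpl39. The small-subunit probe was of Rps27a, was above background in the controls alone and passed the filter through them. Its call is therefore no support for a difference. Both iodine arrays lay below both controls for 50 member probes, against 18.5% of all probes, and above them for 18, against 23.2%. Of 45 members with several kept probes, 27 had all probes lower, 4 all higher and 14 had both signs. The median range over a gene's probes was 0.040, about the median size of a member's difference, 0.042.

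Rpl39 had the most probes, 5, and their differences were -0.23, -0.18, -0.17, -0.14 and -0.035. All of them were below 0, and in the last iodine 3 was the highest array, so its groups overlapped. The 3 probes of Rps15a differed by -0.13, -0.11 and -0.20, the last from a dim probe, and both probes of Rps27l were lower (-0.21 and -0.24). The 3 probes of Rps18 disagreed, with differences of -0.12, -0.038 and 0.055. The brighter probe of Rps23rg1 differed by -0.015 and the dimmer by -0.17.

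The widest disagreement was in Rps27a. Its bright probe read 13.93 and 13.95 in the controls and 13.97 and 13.87 in iodine. A dim probe, designed to another transcript record of the gene, read 2.80 and 2.66 in the controls and was not well above background on either iodine array, at 2.11 and 1.82. That probe was at least 1.41-fold brighter in the controls, counting the iodine arrays at the lowest signal well above background there. It was kept through the controls alone, so no p is given for it.

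**Figure D5:**
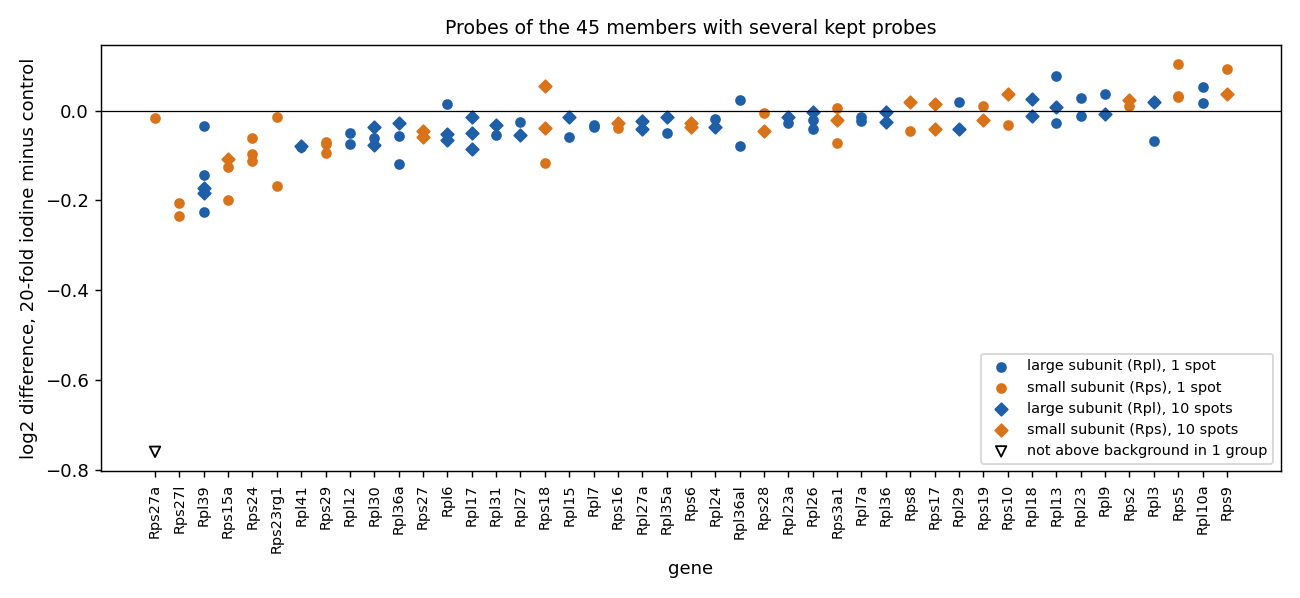
Log2 difference, 20-fold iodine minus control (vertical axis), of every kept probe of the 45 members with several probes (horizontal axis). Circles are probes on 1 spot and diamonds probes on 10 spots, blue for the large and orange for the small subunit; the open triangle is the dim Rps27a probe, not above background in iodine, whose position is no measured difference, and the median range over a gene's probes is 0.040.

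Genes that serve the ribosome were described from lists chosen by function, and none of their members passed the adjusted threshold. At an unadjusted p under 0.05 (limma), 0 ribosomal proteins outside the naming rule, 1 translation factor or other TOP gene, 2 assembly factors, 1 gene of the mTOR list, 0 p53 targets and 1 mitochondrial ribosomal protein were lower in iodine, against 3.48% of all genes, and 0 were higher, against 3.87%. The 7 ribosomal proteins outside the naming rule had a median difference of -0.024, with 5 lower and 2 higher. Fau, which carries the small-subunit protein S30, differed by -0.075 ± 0.099. Rpsa, also known as the laminin receptor, differed by 0.017 ± 0.069. Without iodine 3 the median of these 7 was 0.024.

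Of 18 translation factors and other genes with a TOP mRNA, 14 read lower and 4 higher, with a median of -0.044. Npm1, a nucleolar chaperone of ribosome assembly, read 11.57 and 11.58 in the controls and 11.37 and 11.34 in iodine. Its difference was -0.22 ± 0.070 (unadjusted p = 0.0318, adjusted p = 0.668, limma), and its other probes gave -0.25 and -0.22. Eif3e, a subunit of an initiation factor, differed by -0.17 ± 0.088. Of 35 assembly factors 16 read lower and 19 higher, with a median of 0.0036. Nmd3, the adaptor that exports the large subunit, read 5.94 and 5.98 in the controls and 5.59 and 5.56 in iodine (-0.39 ± 0.071; unadjusted p = 0.00491, adjusted p = 0.668, limma). Rrs1, which helps load the 5S particle, differed by -0.20 ± 0.070.

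Of 18 genes of the mTOR and S6 kinase pathway 13 read lower and 5 higher. Their median was -0.085 with the brightest probe of each gene and 0.0093 with the mean of all its probes. Rps6ka3, a kinase left out by the rule, read 7.37 and 7.41 in the controls and 4.87 and 5.85 in iodine by its brightest probe, a difference of -2.03 ± 0.35 (unadjusted p = 0.00397, adjusted p = 0.668, limma). Its other probes differed by 0.13 and 0.0078, so the probes of this gene disagree. Rheb, the GTPase that switches on mTOR, differed by -0.18 ± 0.071.

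Of 9 p53 targets 7 read lower and 2 higher, with a median of -0.092. Cdkn1a, the cell cycle inhibitor p21, differed by -0.34 ± 0.20 and Ccng1 by -0.12 ± 0.089. The 78 mitochondrial ribosomal proteins, which build the separate ribosome of mitochondria, had a median of 0.013 with 31 lower and 47 higher. Mrpl9 differed by -0.20 ± 0.073 by its brighter probe and by -0.017 by the other, and Mrpl1 by -0.16 ± 0.072. The medians of the assembly factors and of the mitochondrial list turned negative with normexp correction (-0.0055 and -0.011), with median centring (-0.021 and -0.012) and without iodine 2 (-0.0097 and -0.016). The pseudogenes Rps15a-ps6, Rpl34-ps1 and Rpl31-ps12, left out by the rule, differed by -0.12, -0.064 and -0.040.

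TOP sequences and ETS motifs at the start were set beside these differences. The 13 members with a TOP run at a listed start had a median difference of -0.049, with 12 lower and 1 higher, and Rpl28 was the one that read higher. The 49 others with a promoter entry had a median of -0.032, with 34 lower and 15 higher. With a run anywhere within 10 bases of the start, 37 members had a median of -0.044 and the 25 without one -0.0080. The 23 members with CCGGAAG had a median of -0.051 and the 39 without it -0.021. No test was made of these medians.

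The arrays were alike in depth of signal, and some other signals differed between the groups or between single arrays. The 75th percentile of the processed intensity was between 144.3 and 158.8, and between 37535 and 37921 probes were well above background. All 4 arrays lay on 1 slide and in 1 scan, the controls in its first columns and the iodine arrays in its last, so position and group cannot be told apart. All 8 hippocampal neuron markers were tested, with a summed linear signal of 16053 to 17455 in the controls and 16726 to 18849 in iodine. Of them 5 read higher and 3 lower, and Slc17a7 differed by 0.40 ± 0.084 (unadjusted p = 0.00805, adjusted p = 0.668, limma). Astrocyte markers read 3 higher and 3 lower, among them Gfap at 0.29 and Aldh1l1 at -0.17. Oligodendrocyte markers read 4 higher and 2 lower, with Mbp at 0.31 and Mobp at -0.31. Microglia markers read 5 higher and 1 lower, endothelial markers 3 higher and 2 lower, and meningeal markers 1 higher and 5 lower. Pituitary hormone genes, 5 of 6 tested, summed to between 599.6 and 1164 in the controls and between 1728 and 2330.2 in iodine, 4 higher and 1 lower, and Tshb was not well above background. Choroid plexus genes, 6 of 6 tested, summed to 21593 and 24353 in the controls and to 7977 and 40438 in iodine, so the iodine arrays lay on either side. Thalamus and habenula genes, 5 of 5 tested, summed to 1143 and 1109.8 in the controls, 1055 in iodine 2 and 1419 in iodine 3.

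The 28S ribosomal RNA probe, Rn28s1, read 14.61 and 14.55 in the controls and 15.41 and 15.34 in iodine, a difference of 0.79 ± 0.076 (unadjusted p = 0.000406, adjusted p = 0.668, limma). The part of the cell type, pituitary, choroid plexus and thalamus signals, of Rn28s1 and of slide position in the ribosomal protein values was not tested. In RNA from a whole piece of tissue, fewer cells of a type and less RNA per cell cannot be told apart.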

How the data were processed

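Each file is 1 array's scanner output. Per the file headers, the deposited processed intensity was made by the authors with Agilent Feature Extraction 12.1.1.1, which subtracts background and detrends within the array; the deposited flags mark outlier, saturated and above-background spots. Spots of a probe were averaged without outlier spots, log2 values were shifted to a common 75th percentile, and probes marked well above background on 2 or more of the 4 arrays were kept. Names came from the files' accessions through RefSeq's gene table (GRCm38.p6), which named 58.3% of probes. The brightest kept probe stood for a gene. Differences, 20-fold iodine minus control, came from limma 3.58.1 (lmFit, eBayes, two-sided; R 4.3.3) over 2 arrays a group, with Benjamini-Hochberg adjustment over all genes or all probes. The fit was tested on simulated data with planted differences far larger than those of the members. That test therefore does not cover differences as small as theirs. With 2 arrays a group, the number of arrays limits the precision. The labels do not say whether same-numbered arrays were paired, and the fit treated them as unpaired. Deviations of same-numbered arrays correlated at r = -0.024 over all genes and -0.37 over the members. A correlation over genes cannot decide whether the samples were paired.

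Named members are the 8 lower and 8 higher with the smallest unadjusted p, the 5 brightest and 5 dimmest, the 4 whose probes disagree most, copies with their parents, and genes with known outside roles; other lists name the 2 with the smallest p. A few of these are not reported here by name. Members outside the rule were named after their values were seen, where a count of few was spelled out. The members and lists were chosen with earlier results of these data known. Alternatives changed background correction, scaling, filter, variance model, probe choice, replicate block and arrays left out.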

Additional observations from a re-analysis of the deposited data

How the results depend on the processing

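Under every alternative run, 0 members passed an adjusted p of 0.05. With the replicate block, 1 gene and 2 probes had an unadjusted p under 0.05, beside 1056 of all 16794 genes. The member median was -0.030, so the block changed no call. Normexp correction gave 2 genes and 11 probes at an unadjusted p under 0.05, beside 1333 of all 16794 genes. It put 4 members wholly above the controls, beside 22.6% of all genes. Its medians were -0.053 for all members, -0.060 for the small subunit and -0.058 for members between 12 and 14, against 0.0034 for all genes. Median centring gave 49 members wholly below and 5 wholly above, beside 27.0% and 13.9% of all genes. Medians were -0.055 for all members and for either subunit and -0.052 between 12 and 14, against -0.039 for all genes. List medians were -0.11 (mTOR) and -0.12 (p53 targets). A variance trend with robust fitting gave 4 genes and 9 probes, beside 1260 of all 16794 genes. Counts over all probes are not given for the alternatives. Cyclic loess and the filter on all 4 arrays each left 1 probe. Quantile normalization gave -0.072 for p53 targets, and the mean of a gene's probes 0.0093 for the mTOR list. The 10-spot probes, an alternative chosen after seeing the data, gave 0 genes, beside 1233 of all 16794. Leaving out 1 array at a time gave 0 to 1 genes, 1 to 2 probes, 32 to 53 members wholly below and 12 to 23 wholly above, where 35.8% to 42.0% of all genes were wholly below and 30.8% to 35.7% wholly above. Medians then ran from -0.048 to -0.011 for all members, -0.048 to -0.0081 for the large and -0.046 to -0.014 for the small subunit, -0.047 to -0.0062 between 12 and 14 and -0.12 to -0.055 above. List medians ran from -0.079 to 0.024 (proteins outside the rule), -0.093 to -0.032 (TOP genes), -0.0097 to 0.043 (assembly), -0.11 to -0.052 (mTOR), -0.11 to -0.067 (p53) and -0.016 to 0.041 (mitochondrial). Of 39 named genes, 27 kept their sign under all alternatives and 12 did not, the largest of them Rps4l at -0.12. Signs turned under normexp for Rps19bp1 (-0.052) and Rpl5 (-0.0045), under quantile for Rps27a (0.024), Rps4x (0.022) and Rps19 (0.013), under cyclic loess for Rps27a (0.0071), Rps4x (0.0070), Rps19 (0.0019) and Rpl4 (0.0059), under median centring for Rps19bp1 (-0.021) and Rpl5 (-0.0095), and with 10-spot probes for Rpl3 (0.019). With 1 array left out, values ran from -0.039 to 0.0088 for Rps23rg1, -0.0063 to 0.069 for Rpl10, -0.11 to 0.26 for Rpl7l1, -0.39 to 0.15 for Rps4l, -0.089 to 0.024 for Rpl22, -0.052 to 0.011 for Rps19, -0.056 to 0.023 for Rpl4, -0.028 to 0.0078 for Rps4x, -0.019 to 0.027 for Rps19bp1, -0.066 to 0.034 for Rps27a and -0.14 to 0.0036 for Rpl3. The cause was not tested. An array left out leaves 1 sample in a group, assumed to vary like the other group. Naming by a gene name column was not run, since the files used here name probes by accession, and naming by accession alone is the setting reported. The 2 arrays a group, and dim probes such as that of Rpl37, limit what can be seen.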
